A study of Homo sapiens with 6 samples.

Results

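Of the 28278 gene rows in the deposited tables, 10 were examined here: the transgelins TAGLN and TAGLN2, the calponins CNN2 and CNN3, the myosin light chain gene MYL9, the tropomyosins TPM1, TPM2 and TPM4, the cross-linker gene ACTN1 and the smooth muscle actin gene ACTA2. They were taken by exact match of the gene symbol. All 10 were present and all 10 passed the filter on low counts, which left 15131 tested genes. RNA came from RKO, an established human line of poorly differentiated colon carcinoma, in 3 libraries with a hairpin against TRIM21 (shTRIM21, labelled TRIM21 knockdown) and 3 with a scrambled hairpin (shControl, labelled WT). Both groups received their hairpin by lentivirus and were selected with puromycin at 5 µg/ml, begun 36 h after infection and kept up for 2 to 3 weeks, so resistance and selection are common to both. The labels call the libraries biological replicates without naming separate infections or clones, so the p-values measure the spread between these libraries, which may be technical. A label field that reads mouse tissue goes against the organism, the cell line and the human symbols. The data are bulk RNA, in which fewer cells expressing a gene and less RNA per cell cannot be told apart.

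These genes encode parts of the contractile actin bundle. Myosin II pulls on actin filaments, tropomyosins lie along the filaments, calponins and transgelins bind their sides, and alpha-actinins tie them into stress fibres. Many of the genes are known targets of the serum response factor SRF, which binds the CArG box and works with the co-activators MRTFA and MRTFB. The co-activators are held in the cytoplasm by free actin monomers and reach the nucleus when filaments assemble. In gut tissue ACTA2, TAGLN and MYL9 are best known from smooth muscle and activated fibroblasts, while TAGLN2, CNN2, CNN3, TPM4 and ACTN1 are common in non-muscle cells.

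Because SRF acts through the CArG box, the start regions of the genes were read for it. RefSeq promoters (GRCh38.p14, 250 bases before to 50 after a start) were given for 8 of the 10 genes, 18 windows in all, the exceptions being TAGLN and MYL9. An exact CArG box, whose pattern is its own reverse complement, occurred in 3 of the 18 windows, those of CNN2, TPM4 and ACTN1, against 1.29% of all 35116 promoters of that length. The windows of these 3 genes are shown 5′ to 3′ on the strand of the gene with the CArG box in capitals. The box began 89 bases before the start in CNN2 (chr19:1026358-1026657, plus strand), 173 before it in TPM4 (chr19:16067288-16067587, plus strand) and 171 before it in ACTN1 (chr14:68977517-68977816, minus strand).
CNN2: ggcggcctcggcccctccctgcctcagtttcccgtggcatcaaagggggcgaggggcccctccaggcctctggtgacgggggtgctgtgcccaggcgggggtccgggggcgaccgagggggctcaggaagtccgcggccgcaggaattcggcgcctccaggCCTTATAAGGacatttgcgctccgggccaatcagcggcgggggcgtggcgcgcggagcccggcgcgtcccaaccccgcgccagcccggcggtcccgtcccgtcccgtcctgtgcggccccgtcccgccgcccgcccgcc
TPM4: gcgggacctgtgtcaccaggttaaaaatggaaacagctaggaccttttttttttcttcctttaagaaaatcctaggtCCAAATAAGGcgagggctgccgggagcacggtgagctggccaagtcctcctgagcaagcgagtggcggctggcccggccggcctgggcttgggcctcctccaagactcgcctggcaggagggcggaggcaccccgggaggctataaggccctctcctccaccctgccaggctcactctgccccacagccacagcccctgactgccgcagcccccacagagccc
ACTN1: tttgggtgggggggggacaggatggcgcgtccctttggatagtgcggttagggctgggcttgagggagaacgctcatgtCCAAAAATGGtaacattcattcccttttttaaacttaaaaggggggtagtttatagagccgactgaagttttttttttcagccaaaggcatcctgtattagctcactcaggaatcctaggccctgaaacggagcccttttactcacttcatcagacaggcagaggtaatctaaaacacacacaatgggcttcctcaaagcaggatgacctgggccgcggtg
TPM4 and ACTN1 each have further windows without a box. With 1 mismatch allowed, 6 of the 18 windows held a match, from ACTA2, CNN2, TPM4 and ACTN1, against 18.9% of all promoters. The TEAD word GGAATG, searched on both strands, was in 3 windows, from ACTA2, CNN3 and ACTN1, against 14.0% of all promoters, and the ETS word GGAAG in 14 windows, against 71.9%. These matches describe letters in the windows and do not show binding.

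TRIM21, the hairpin's target, had 299, 271 and 297 counts in the shTRIM21 libraries, against 459, 421 and 343 in the shControl libraries (log2 fold change -0.54, SE 0.12; adjusted p = 0.00424 by edgeR). With library sizes alone it was -0.34 (adjusted p = 0.197 by edgeR). Library totals ran from 33499827 to 38051662 counts per library in shTRIM21 and from 33829727 to 44466137 in shControl, of which ribosomal RNA rows took 16.99% to 23.5% in shTRIM21 and 14.7% to 36.9% in shControl. Levels are given as CPM, counts divided by a library size (in units of 1000000 counts) scaled with TMM factors, which adjust for the share taken by a few abundant genes. Fold changes are log2 values of shTRIM21 over shControl.

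The 10 genes did not move as a block. Of them 2 rose, TAGLN and MYL9, and 3 fell, CNN3, CNN2 and TPM2, in edgeR's quasi-likelihood test with Benjamini-Hochberg adjustment over all tested genes (adjusted p under 0.05). The other 5 did not pass. Among all tested genes 9.77% were called higher, 11.0% lower and 20.8% either way. All of these changes were small, with TAGLN the farthest from 0 at 1.37-fold. The median log2 fold change of the 10 genes was -0.073, against 0.0054 for all tested genes. The groups did not overlap for 8 of the 10 genes, 5 lower and 3 higher in shTRIM21, where 37.7% of all tested genes showed no overlap.

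**Figure D1:**
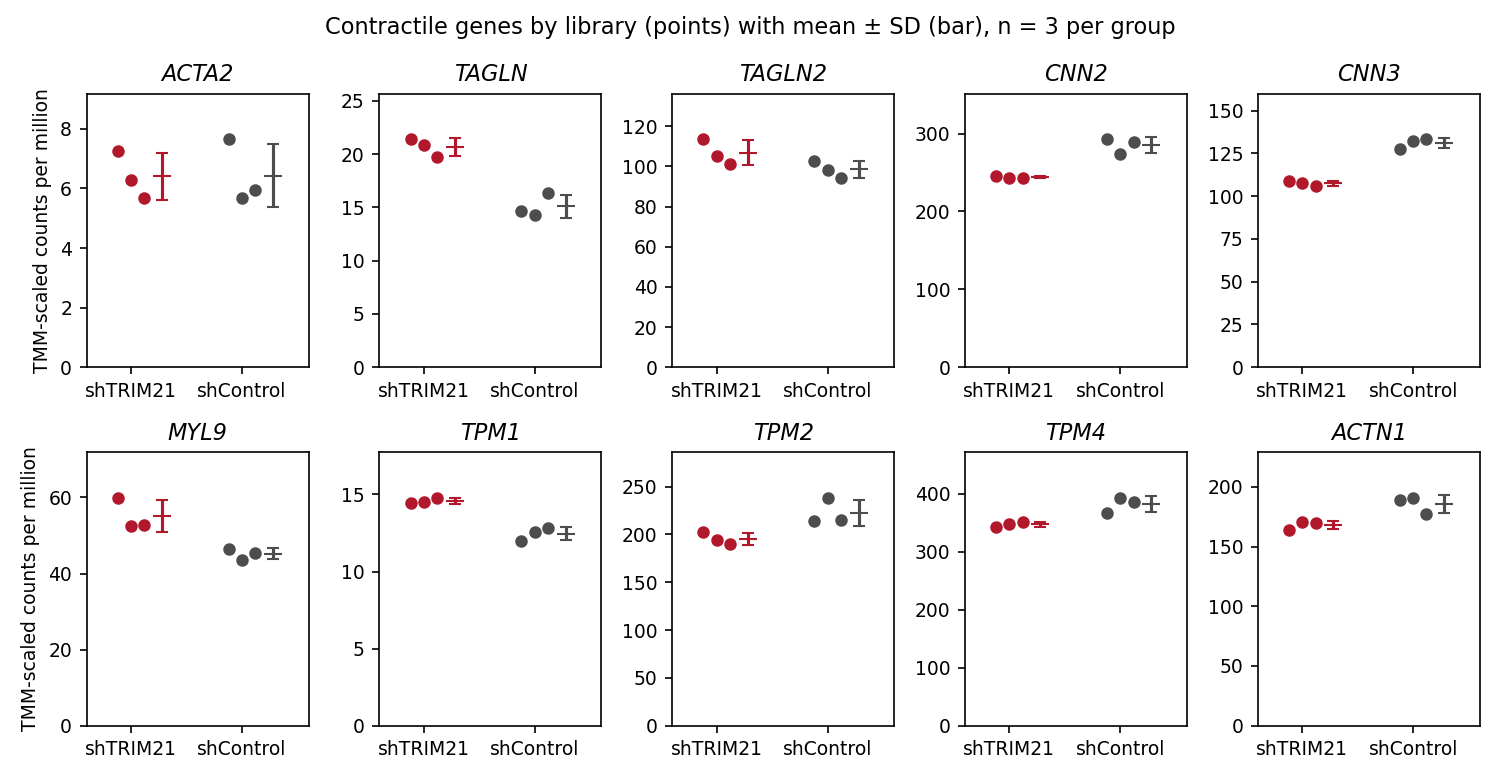
TMM-scaled CPM of each contractile gene, on axes that start at 0, in the 3 shTRIM21 and 3 shControl libraries (points), with the mean ± SD beside them. The shTRIM21 points lie above the shControl points for TAGLN, MYL9 and TPM1, below them for CNN2, CNN3, TPM2, TPM4 and ACTN1, and overlap them for ACTA2 and TAGLN2.

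TAGLN encodes transgelin, also known as SM22-alpha, an actin-binding protein used as an early marker of smooth muscle differentiation. It had 21.4, 20.8 and 19.8 CPM in shTRIM21, against 14.7, 14.3 and 16.3 CPM in shControl. All 3 shTRIM21 libraries lay above all shControl libraries. The means were 20.7 ± 0.829 CPM in shTRIM21 and 15.1 ± 1.10 CPM in shControl (SD, n = 3 each), a log2 fold change of 0.45 (SE 0.085, 95% interval 0.27 to 0.63; edgeR adjusted p = 0.00166). At chr11:117199294-117207465 (RefSeq, GRCh38.p14, as for all gene positions here) TAGLN overlaps the protease gene PCSK7 and LOC100652768, and reads may be shared. PCSK7 had a log2 fold change of 0.092 (SE 0.075; edgeR adjusted p = 0.423) and LOC100652768, at 1.50 CPM in shTRIM21 and 1.05 CPM in shControl, one of 0.51 (SE 0.26; edgeR adjusted p = 0.183), neither passing the test.

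TAGLN2 encodes the transgelin of non-muscle cells and lies at chr1:159918111-159925507. Its levels of 114, 105 and 101 CPM in shTRIM21 and 103, 98.4 and 94.1 CPM in shControl overlapped. It gave a log2 fold change of 0.12 (SE 0.059; 95% interval, -0.0086 to 0.24) with an edgeR adjusted p of 0.178 (n = 3 each).

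MYL9 encodes the regulatory light chain of smooth muscle and non-muscle myosin II, whose phosphorylation switches on contraction. It had 59.96, 52.4 and 52.9 CPM in shTRIM21, against 46.5, 43.6 and 45.3 CPM in shControl. The groups did not overlap, although shTRIM21 replicate 1 stood above the other shTRIM21 libraries. MYL9 rose by 0.29 on the log2 scale (SE 0.066; 95% interval, 0.15 to 0.43), with an edgeR adjusted p of 0.00662. MYL9 lies on chromosome 20 at 36541519 to 36551447, where the antisense gene DLGAP4-AS1 has at most 7 counts in any library.

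Both calponins fell. CNN2 had 246, 243 and 243 CPM in shTRIM21, against 293, 274 and 289 CPM in shControl. CNN3 had 109, 108 and 106 CPM in shTRIM21, against 128, 132 and 133 CPM in shControl. For both genes every shTRIM21 library was below every shControl library, and the shTRIM21 libraries lay close together, with SDs of 1.33 CPM for CNN2 and 1.42 CPM for CNN3. CNN2 changed by -0.23 on the log2 scale (SE 0.049, 95% interval -0.33 to -0.12; edgeR adjusted p = 0.00457). CNN3 changed by -0.29 (SE 0.050, 95% interval -0.39 to -0.18; edgeR adjusted p = 0.00101). CNN2 lies on chromosome 19 at 1026608 to 1039065 and CNN3 on chromosome 1 at 94896957 to 94927110. Without shControl replicates 1 and 3, which held the most ribosomal RNA counts, shControl replicate 2 was the lone control. CNN2 was then at -0.18 and not called. With ribosomal RNA rows removed under TMM and all libraries kept, CNN2 was at -0.23 (edgeR adjusted p = 0.00284).

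Of the 3 tropomyosin genes only TPM2 passed the test. TPM2 (chr9:35681993-35690056) encodes beta-tropomyosin and had 202, 194 and 189.8 CPM in shTRIM21, against 214, 239 and 215 CPM in shControl, with no overlap. TPM2 changed by -0.19 on the log2 scale (SE 0.056, 95% interval -0.31 to -0.068; edgeR adjusted p = 0.0282). This call held under 11 of 17 alternatives, the fewest of the 5 calls. It was lost without shTRIM21 replicate 2 (-0.19, edgeR adjusted p = 0.102), without shTRIM21 replicate 3 (-0.17, adjusted p = 0.0759) and without shControl replicate 2 (-0.14, adjusted p = 0.0969), the library with the highest TPM2 level. It was also lost with upper-quartile factors (-0.15, edgeR adjusted p = 0.0714).

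TPM4 (chr19:16067538-16103002), of cytoskeletal filaments in most cells, had 343, 349 and 351 CPM in shTRIM21, against 367, 394 and 386 CPM in shControl. TPM1 (chr15:63042747-63071915), whose products include muscle and cytoskeletal tropomyosins, had 14.5, 14.5 and 14.8 CPM in shTRIM21, against 11.97, 12.5 and 12.8 CPM in shControl. Neither gene overlapped between groups, TPM4 being lower and TPM1 higher in shTRIM21, yet neither passed the test. TPM4 had a log2 value of -0.14 (SE 0.050, 95% interval -0.24 to -0.031; edgeR adjusted p = 0.0650) and TPM1 one of 0.23 (SE 0.085, 95% interval 0.048 to 0.41; edgeR adjusted p = 0.0697). TPM4 passed under 5 of 17 alternatives, among them without shControl replicate 1 (edgeR adjusted p = 0.0490). TPM1 passed under 2 of 17, among them upper-quartile factors (edgeR adjusted p = 0.0356). The tables count whole genes, so the many splice forms of tropomyosin are summed. TPM1 overlaps TPM1-AS, at 4.66 CPM in shTRIM21 and 3.80 CPM in shControl, whose log2 fold change was 0.30 (SE 0.19; edgeR adjusted p = 0.298).

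ACTN1 (chr14:68874128-68979302) encodes alpha-actinin 1, which ties stress fibres together and links them to adhesions. Its levels were 164, 170.4 and 169.9 CPM in shTRIM21, against 189, 191 and 177 CPM in shControl. The groups did not overlap, but the log2 fold change of -0.14 (SE 0.052, 95% interval -0.25 to -0.034) missed the threshold at an edgeR adjusted p of 0.0597. ACTN1 passed under 3 of 17 alternatives. Among them was the fit without shControl replicate 3, the lowest of the shControl libraries for this gene (edgeR adjusted p = 0.0481).

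ACTA2, smooth muscle alpha-actin and the usual mark of a myofibroblast, gave few counts. It had 272, 246 and 215 counts in shTRIM21, against 289, 209 and 216 counts in shControl. These are 7.25, 6.28 and 5.68 CPM in shTRIM21 and 7.66, 5.69 and 5.96 CPM in shControl, which overlap widely. The log2 difference of -0.0082 (SE 0.14; 95% interval, -0.31 to 0.30) had an edgeR adjusted p of 0.978. ACTA2 overlaps FAS, which had more counts of its own (533 to 698), and ACTA2-AS1 (68 to 123), at chr10:88935074-88991337.

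Set on a scale per kilobase of exon (GENCODE 29, all exons of a gene merged), TPM2, CNN2 and TPM4 were the most abundant in both groups, at 119 ± 3.91, 109 ± 0.595 and 102 ± 1.15 CPM per kilobase in shTRIM21 and 136 ± 8.41, 127 ± 4.40 and 112 ± 3.99 in shControl (SD, n = 3 each). TAGLN2 came next in shTRIM21 at 54.9 ± 3.22 CPM per kilobase, ahead of CNN3 at 45.9 ± 0.604. In shControl the order of this pair on this scale was turned, CNN3 being at 56.0 ± 1.33 and TAGLN2 at 50.7 ± 2.24 CPM per kilobase. ACTN1 followed at 40.4 ± 0.850 in shTRIM21 and 44.6 ± 1.83 in shControl, then MYL9 at 19.5 ± 1.50 in shTRIM21 and 16.0 ± 0.514 in shControl. TAGLN was at 8.60 ± 0.345 in shTRIM21 and 6.29 ± 0.459 in shControl, and ACTA2 at 4.75 ± 0.587 in shTRIM21 and 4.77 ± 0.791 in shControl. TPM1 was last at 1.75 ± 0.0215 in shTRIM21 and 1.49 ± 0.0509 in shControl, with 8.347 kilobases of merged exon, the longest of the 10. This last place rests on that length, since in plain CPM TPM1 was above ACTA2. The means were 14.6 against 6.40 CPM in shTRIM21 and 12.4 against 6.43 CPM in shControl. The turned order of CNN3 and TAGLN2 rests on length too. In plain CPM the CNN3 mean was the higher in both groups. It was 107.5 against 106.8 CPM in shTRIM21, where the libraries of these genes overlapped, and 131 against 98.5 CPM in shControl. The order of the first 3 genes also differed in plain CPM, where it was TPM4, CNN2 and TPM2. They were at 348, 244 and 196 CPM in shTRIM21 and 382, 286 and 223 CPM in shControl. Neighbours in the order per kilobase did not overlap between libraries, except TPM2 and CNN2 in shControl.

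**Figure D2:**
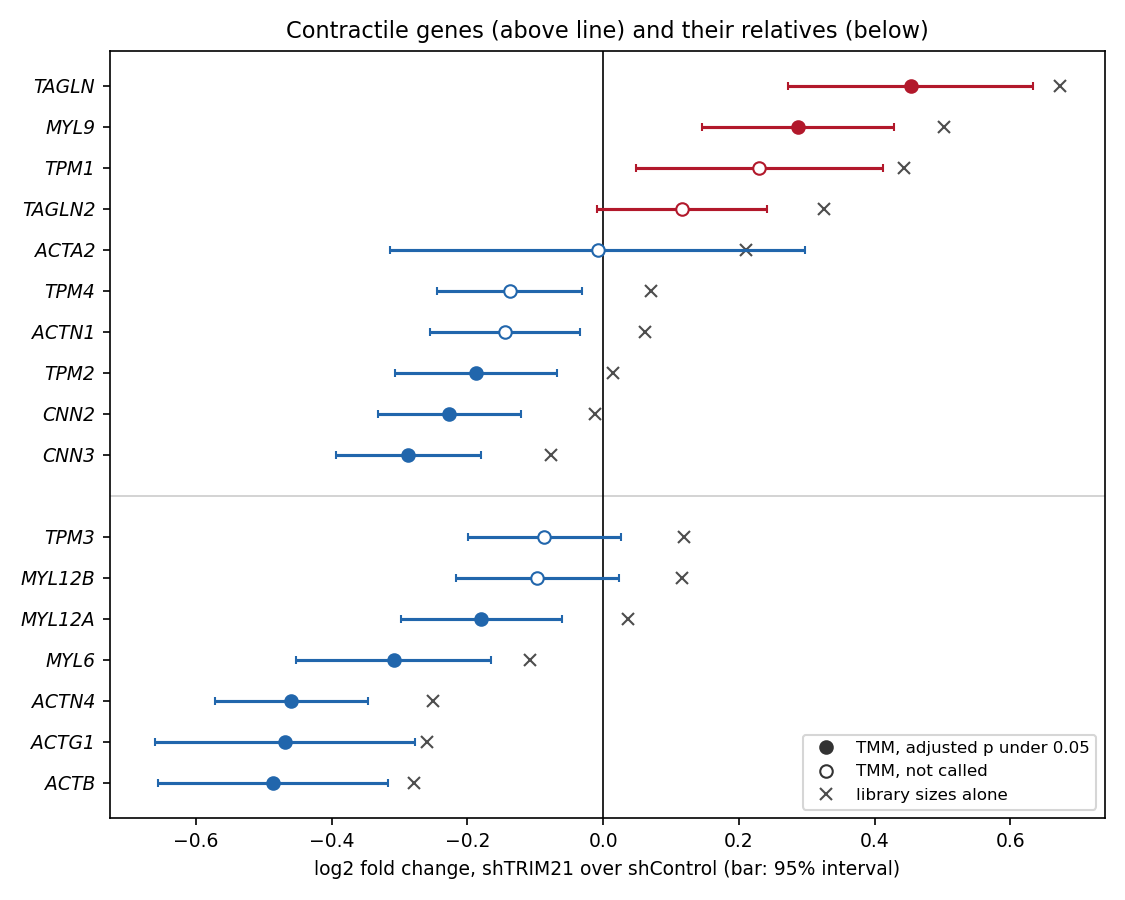
log2 fold change of shTRIM21 over shControl with its 95% interval for the 10 contractile genes (above the line) and 7 relatives (below it); filled points passed the test, open points did not, and crosses give the value with library sizes alone. TAGLN and MYL9 lie right of 0 under both scalings, while ACTB, ACTG1 and ACTN4 lie left of 0 under both, called with TMM and uncalled when only library sizes were used.

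TAGLN and MYL9 were called higher under all 5 other ways of scaling. CNN2 and CNN3 were called lower under 4 of the 5, among them library sizes after removal of ribosomal RNA rows, where CNN2 was at -0.16 (edgeR adjusted p = 0.0255) and CNN3 at -0.22 (adjusted p = 0.00504). The exception was library sizes alone. With library sizes alone, in which ribosomal RNA counts take part, the median of all tested genes moved to 0.22, and 0.912% of all tested genes were called lower and 12.1% higher. Under that scaling 0 of the 10 contractile genes were called lower by edgeR (0 also at an unadjusted p under 0.05; DESeq2 and limma-voom, which scale for composition, called 5 and 4), while TAGLN (0.67) and MYL9 (0.50) were called higher. TPM2, TPM4 and ACTN1 were then slightly above 0, at 0.015, 0.071 and 0.062. Relative to the median of all genes under that scaling, CNN3 was at -0.29, CNN2 at -0.23, TPM2 at -0.20, MYL9 at 0.28 and TAGLN at 0.45. A change of scaling shifts all genes by nearly the same amount. These values therefore lie near those with TMM by construction and are no separate check of the falls.

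Among the relatives of these genes in the same families the main non-muscle actins and alpha-actinin 4 fell. Of 17 relatives 9 could be tested, of which 5 fell and 0 rose by edgeR. These are 55.6% and 0% of the tested relatives, against 11.0% and 9.77% of all tested genes. An unadjusted p under 0.05, DESeq2 and limma-voom also gave 5 and 0. The median log2 fold change was -0.18 with TMM. With library sizes alone 0 passed in edgeR, 0 also unadjusted, and the median was 0.036. The cytoplasmic actins ACTB and ACTG1, the main actins of non-muscle cells, had 2691 ± 64.6 and 4332 ± 104 CPM in shTRIM21, against 3771 ± 196 and 5994 ± 365 CPM in shControl (SD, n = 3 each). ACTB changed by -0.49 (SE 0.079; edgeR adjusted p = 0.000587) and ACTG1 by -0.47 (SE 0.090; edgeR adjusted p = 0.00194). The non-muscle alpha-actinin gene ACTN4 was at 625 ± 10.5 CPM in shTRIM21 and 859 ± 17.9 CPM in shControl, a change of -0.46 (SE 0.053; edgeR adjusted p = 2.60e-05). The essential light chain gene MYL6 changed by -0.31 (SE 0.067; edgeR adjusted p = 0.00472) and the regulatory light chain gene MYL12A by -0.18 (SE 0.056; edgeR adjusted p = 0.0330). MYL12B (-0.097, SE 0.056) and TPM3 (-0.087, SE 0.053) did not pass. MYL12A and MYL12B are near-identical neighbours, and ACTB, ACTG1 and TPM3 have processed pseudogenes, so their reads may be split by the counting.

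A share within a family does not depend on library scaling, and 9 such shares were compared over the 6 libraries with two-sided exact permutation tests, which with 3 against 3 cannot go below 0.1. For 5 of the 9 the groups did not overlap, all 5 with the higher share in shTRIM21 and an exact permutation p of 0.1 (0.18 adjusted over the 9). This direction depends on which gene of a family is named, since the rest of the family then loses share. A higher share is also no rise in level, and no rate over other families was computed. MYL9 made up 12.7%, 11.9% and 12.4% of the counts of MYL9, MYL12A and MYL12B in shTRIM21, against 9.61%, 9.62% and 9.48% in shControl. The TAGLN share of transgelin counts was 15.9%, 16.5% and 16.3% in shTRIM21, against 12.5%, 12.7% and 14.8% in shControl. In both families all 3 shTRIM21 libraries gave the less abundant gene a larger share than any shControl library did.

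ACTN1 made up 21.0%, 21.5% and 21.0% of alpha-actinin counts in shTRIM21, against 18.3%, 17.8% and 17.2% in shControl, with no overlap. With TMM scaling ACTN1 itself was at -0.14 on the log2 scale (not called) and ACTN4 at -0.46. So this share rose while both TMM-scaled levels were lower in shTRIM21. With library sizes alone ACTN1 was at 0.062 and ACTN4 at -0.25. Among the 4 tropomyosin genes TPM1 held 1.36%, 1.37% and 1.40% in shTRIM21, against 1.08%, 1.04% and 1.12% in shControl. TPM3 held 47.4%, 47.2% and 47.5% in shTRIM21, against 46.4%, 46.4% and 46.2% in shControl, while its own log2 fold change was -0.087 (not called). The remaining 4 shares overlapped between groups. TPM2 averaged 18.5% ± 0.545 of tropomyosin counts in shTRIM21 and 19.3% ± 0.486 in shControl, and TPM4 32.8% ± 0.491 in shTRIM21 and 33.2% ± 0.578 in shControl (SD, n = 3 each). CNN2 averaged 69.4% ± 0.197 of calponin counts in shTRIM21 and 68.5% ± 1.11 in shControl. ACTA2 was 0.0910% ± 0.00921 of the counts of ACTA2, ACTB and ACTG1 in shTRIM21 and 0.0664% ± 0.0152 in shControl (SD, n = 3 each; exact permutation p = 0.2). The 95% Wilson interval of a single library's share reached at most 1.10 points to either side for TAGLN and 0.115 points for TPM1, counting error only.

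**Figure D3:**
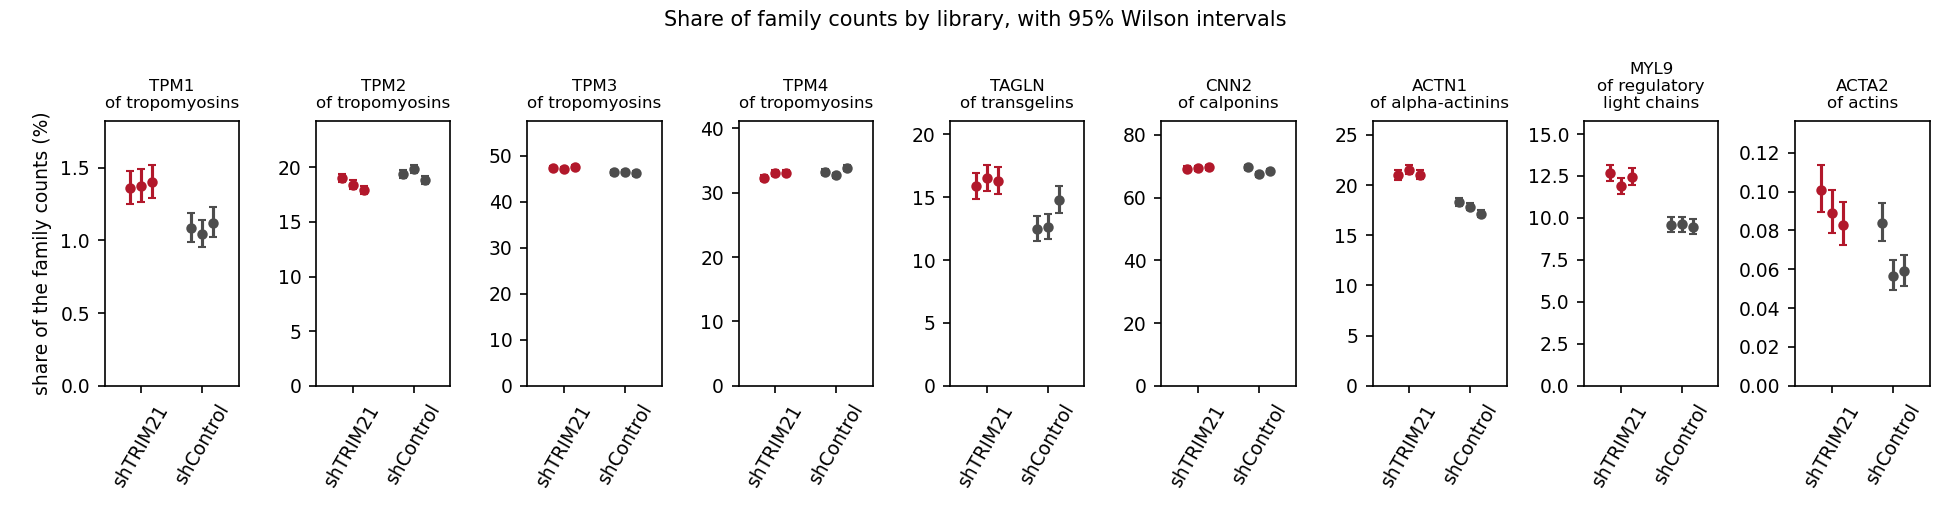
Share of each family's counts taken by the named gene (%), per library with its 95% Wilson interval, shTRIM21 left and shControl right. The shares of TPM1, TPM3, TAGLN, ACTN1 and MYL9 lie higher in all 3 shTRIM21 libraries, and the other 4 overlap.

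SRF itself did not pass the test, at 52.1 ± 3.22 CPM in shTRIM21 and 54.0 ± 3.28 CPM in shControl (SD, n = 3 each; log2 fold change -0.052, SE 0.067; edgeR adjusted p = 0.630). Its co-activator genes did not pass either, MRTFA at -0.098 (SE 0.092; edgeR adjusted p = 0.493) and MRTFB at 0.18 (SE 0.065; edgeR adjusted p = 0.0554). Of the 9 tested genes for SRF and its co-factors 4 fell and 0 rose by edgeR, DESeq2 and limma-voom (4 and 1 at an unadjusted p under 0.05). The edgeR calls are 44.4% and 0% of the list, against 11.0% and 9.77% of all tested genes. With library sizes alone 0 passed in edgeR (1 lower and 1 higher unadjusted). The filamin gene FLNA, whose product cross-links actin and binds MRTFA, changed by -0.57 (SE 0.055), the LIM-domain cofactor gene FHL2 by -0.41 (SE 0.064), and the ternary complex factors ELK3 and ELK4, which dock on SRF, by -0.36 (SE 0.058) and -0.28 (SE 0.066).

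Of 32 tested genes known as other SRF and MRTF targets 17 fell and 2 rose by edgeR, with a median of -0.17. These are 53.1% and 6.25% of the list, against 11.0% and 9.77% of all tested genes. DESeq2 and limma-voom each called 16 lower and 2 higher. The list shares ACTB and ACTG1 with the relatives and FHL2 with the co-factors, so these falls count in both lists. The matricellular genes CCN2, THBS1 and CCN1 changed most, by -1.90 (SE 0.15), -1.26 (SE 0.092) and -1.09 (SE 0.10), and all 3 are also targets of YAP and TAZ. PDLIM5, a PDZ and LIM protein of the actin cytoskeleton, rose by 0.72 (SE 0.052) and EGR1, an immediate-early factor chosen here after its value was seen, by 0.58. With library sizes alone 3 of the 32 were called lower, these 3, and 3 higher.

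Among 21 tested cross-linkers and adaptors of stress fibres 13 fell and 5 rose, with a median of -0.20. These are 61.9% and 23.8% of the list, against 11.0% and 9.77% of all tested genes. With library sizes alone edgeR called 0 lower (1 at an unadjusted p under 0.05) and 3 higher, with a median of 0.018. The list shares FLNA with the co-factors, and shares PDLIM5, PDLIM7, LIMA1, TLN1 and VCL, among others, with the SRF and MRTF targets. The actin-binding gene LASP1 changed by -0.44 (SE 0.052; edgeR adjusted p = 3.11e-05). Against it SYNPO, encoding synaptopodin, which binds alpha-actinin, had 15.5 ± 0.677 CPM in shTRIM21 and 7.98 ± 0.462 CPM in shControl (SD, n = 3 each), a rise of 0.96 (SE 0.095; edgeR adjusted p = 5.82e-06).

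**Figure D4:**
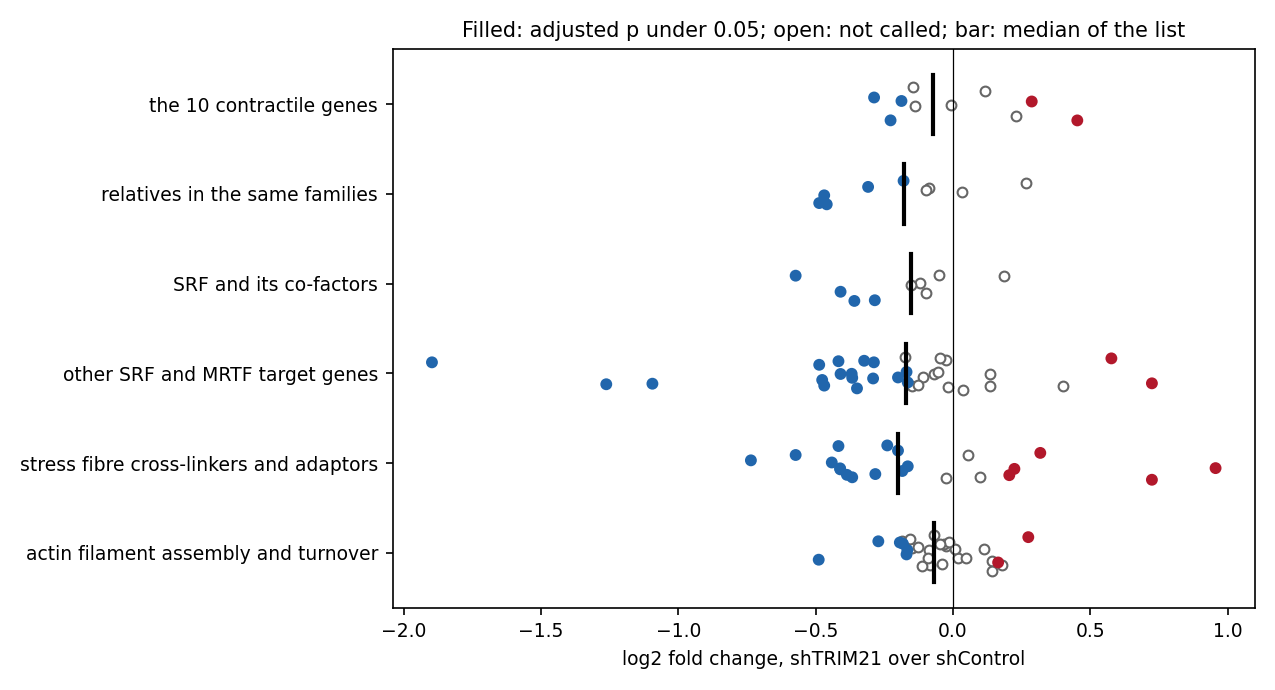
log2 fold change of shTRIM21 over shControl for the tested genes of each list (filled where called, open where not), with the median as a bar. The 10 contractile genes lie on both sides of 0, and the median of each other list shown is below 0 with TMM scaling. The other lists share genes, so their medians are not independent.

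All 7 epithelial markers passed the filter on low counts, though at unlike levels. VIL1 was low, at 10.8 ± 0.219 CPM in shTRIM21 and 11.3 ± 1.32 CPM in shControl (SD, n = 3 each). EPCAM was at 198 ± 5.42 CPM in shTRIM21 and 180.1 ± 19.6 CPM in shControl, and KRT8 at 2501 ± 54.8 CPM in shTRIM21 and 3384 ± 232 CPM in shControl (SD, n = 3 each). Of the 10 smooth muscle markers 4 could be tested and the summed level was 85.5 to 92.2 CPM in shTRIM21 and 105 to 114 CPM in shControl, of which the broadly expressed SMTN made up 81.0 CPM in shTRIM21 and 99.6 CPM in shControl on average. MYH11, the smooth muscle myosin heavy chain, was at 4.16 CPM in shTRIM21 and 5.03 CPM in shControl, while CNN1, LMOD1, ACTG2, MYOCD and PLN averaged under 1 CPM and KCNMB1 was listed at 0 in every library. Without SMTN the list does not run one way. CNN1 had 3, 3 and 3 counts in shTRIM21, against 1, 0 and 0 in shControl. LMOD1 had 17, 7 and 12 counts in shTRIM21, against 5, 0 and 4 in shControl. Neither overlapped between groups and neither had enough counts to be tested. The share of genes with so few counts that do not overlap is not given here. SYNPO2 was tested at 0.68 (SE 0.35; edgeR adjusted p = 0.188). These 3 genes were chosen after their values were seen, and none was called. Their values point the same way as those of TAGLN and MYL9. Of the 4 tested smooth muscle markers, however, 3 were below 0 and 1, SYNPO2, above it, with a median of -0.28 (TMM). Of the 9 fibroblast markers DCN, LUM, THY1 and FAP were listed at 0 in every library, and the summed level was 10.5 to 11.1 CPM in shTRIM21 and 6.15 to 9.19 CPM in shControl, mostly COL1A1. A 0 in these tables need not mean no expression, since the widely expressed gene ZYX, encoding zyxin, is listed at 0 in all 6 libraries too. COL1A1 had 378, 394 and 398 counts in shTRIM21, against 322, 222 and 329 in shControl (log2 fold change 0.37, SE 0.13; edgeR adjusted p = 0.0589). COL3A1 had 5, 3 and 7 counts in shTRIM21, against 0, 1 and 0 in shControl. COL1A1 and COL3A1 were higher in every shTRIM21 library than in any shControl library, where 37.7% of all tested genes showed no overlap. COL1A1 was not called, and COL3A1 rests on few counts. Of the 2 tested fibroblast markers 1 did not overlap between groups. The 7 endothelial and leukocyte markers summed to 0.687 to 0.933 CPM in shTRIM21 and 0.354 to 0.954 CPM in shControl. Of the tested markers edgeR called 1 smooth muscle gene lower (SMTN), 3 keratin genes lower and CDH1, encoding E-cadherin, higher (0.57, SE 0.068), and 0 of 2 fibroblast markers and 0 of 1 endothelial or leukocyte marker (1 higher and 0 at an unadjusted p under 0.05; 0 and 0 with DESeq2 and limma-voom). With upper-quartile factors and with library sizes, ribosomal RNA rows kept or removed, 1 of the 2 fibroblast markers was called higher. The part of these markers in the levels of TAGLN and MYL9 was not tested.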

How the data were processed

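Total RNA was depleted of ribosomal RNA and made into libraries with GenSeq kits, per the labels' protocols. Each deposited table holds unnormalized whole-number counts for 1 library, by gene symbol. The submitters' processing notes name TopHat2, edgeR 3.38.1, limma 3.52.2 and hg38 without roles. Which counter, annotation or strand setting made the counts is not given in the sources used here.

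In R 4.3.3, edgeR 4.0.16 ran filterByExpr (minimum count 10, minimum total 15), TMM scaling and its quasi-likelihood test over the 6 libraries, with Benjamini-Hochberg adjustment over 15131 genes and a threshold of 0.05. Standard errors were derived from F and the log2 fold change. The fit was tested on simulated data. DESeq2 1.42.0 and limma-voom (limma 3.58.1) were alternatives, with other scalings, no filter, a replicate block and left-out libraries. The members and lists were chosen with earlier results of these data known. From each other list up to 4 called genes with the smallest p-values and at least 5 CPM in the higher group were named, with SRF, MRTFA, MRTFB and 6 relatives; others named were chosen after their values were seen. The results of 1 list are not reported here. The rule for naming genes with a like profile needed a called member past 0.5 on the log2 scale, and 0 met it. No 2 libraries of a group agreed within counting noise.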

Additional observations from a re-analysis of the deposited data

How the results depend on the processing

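TAGLN and MYL9 were called higher under all 17 alternatives, with log2 fold changes from 0.41 to 0.67 and from 0.22 to 0.50. MYL9 came nearest the threshold with shControl replicate 2 as the lone control, assumed to vary like the other group (edgeR adjusted p = 0.0498). Library sizes alone gave 1969 called genes, 0 contractile genes called lower and a median of 0.14 for the 10 genes, and turned TPM2 to 0.015, TPM4 to 0.071, ACTN1 to 0.062 and ACTA2 to 0.21. Of all called genes 93.0% were then higher, against 47.0% with TMM, 62.1% with upper-quartile factors and 69.2% with library sizes after removal of ribosomal RNA rows. The last of these, chosen after seeing the data, moved the median of all genes to 0.071 and called 4 contractile genes higher, adding TPM1 and TAGLN2. Leaving out ribosomal RNA rows under TMM, or using DESeq2, called 5 lower, adding TPM4 and ACTN1; the cause was not tested. ACTA2 also turned to 0.032 with upper-quartile factors, 0.055 with library sizes without ribosomal RNA, 0.16 with that lone control, and between -0.11 and 0.13 with 1 library left out, above 0 without shTRIM21 replicate 3 (0.070) or shControl replicate 1. Leaving out 1 library gave 1844 (without shTRIM21 replicate 2) to 2592 called genes, 2 to 4 contractile genes lower, 2 higher and medians from -0.12 to 0.0012; the lone control gave 1958 genes. The TPM4 share of tropomyosins was 0.0056 points higher in shTRIM21 per kilobase and 0.38 points without TPM3, against -0.44 points as counted.

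Same-numbered libraries did not deviate together (correlations -0.013, 0.0057 and -0.080). With 3 libraries per group these values cannot exclude a shared day or batch. With the replicate block 2905 genes were called, among them the same 3 lower and 2 higher contractile genes. Intervals on shares cover counting error only.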

Other observations

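Of 29 tested genes that assemble and turn over actin filaments 6 fell and 2 rose in shTRIM21 by edgeR's quasi-likelihood test. These are 20.7% and 6.90% of the list, against 11.0% and 9.77% of all tested genes, and the other 21 did not pass. The list had a median log2 fold change of -0.068. The genes for the actin monomer-binding thymosins fell, with TMSB4X at 94.6 ± 8.10 CPM in shTRIM21 and 133 ± 4.76 CPM in shControl and TMSB10 at 805 ± 34.7 CPM in shTRIM21 and 971 ± 20.1 CPM in shControl (SD, n = 3 each). Their log2 fold changes were -0.49 (SE 0.063; edgeR adjusted p = 7.99e-05) and -0.27 (SE 0.057; edgeR adjusted p = 0.00353). The cyclase-associated gene CAP1, also among the SRF and MRTF targets above, changed by -0.17 (SE 0.049, edgeR adjusted p = 0.0236). LIMK1, a kinase that switches off cofilin, rose by 0.27 (SE 0.068; edgeR adjusted p = 0.0103). With library sizes alone edgeR called 0 of the 29 lower (0 also at an unadjusted p under 0.05; DESeq2 called 7) and 1 higher, LIMK1.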
